A study of Homo sapiens with 6 samples.

Results

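The 45 genes described here encode the proteins that mark DNA replication origins, load and start the replicative helicase, and copy the DNA at the fork. They form a list of gene symbols drawn up by the function of their products; the list uses no measured value as a criterion, but it was chosen with earlier results of these data known. Each symbol matched exactly 1 of the 60664 genes counted, and all 45 passed the filter on low counts that left 14673 genes for testing. The list holds the 6 subunits of the origin recognition complex, 3 licensing factors, the 6 subunits of the MCM2-7 helicase, 8 genes of helicase activation, 9 polymerase and primase subunits, the sliding clamp with its 5 loader subunits, 2 genes of Okazaki fragment maturation, 2 fork protection genes and the 3 subunits of replication protein A.

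The knockdown (KD) group held 3 RNA-seq libraries from D283 Med cells transfected with an LNA GapmeR against the long noncoding RNA lncMB3. The control (SCR) group held 3 libraries from D283 Med cells transfected with a scrambled control GapmeR. A GapmeR is a short antisense oligonucleotide with locked nucleic acid ends that directs RNase H to cut its target RNA. D283 Med is an established Group 3 medulloblastoma line with an amplified MYC gene, so both groups carry that amplification and stand for 1 cell line. No source used here gives the time after transfection or the oligonucleotide dose. The level of lncMB3 itself was not analysed here, because the sources used here do not tie the name to a gene identifier. Nor do they state that replicates are independent cultures. The p-values below reflect how far the 3 libraries of a group scatter, with the spread partly shared across genes, and that scatter may be technical.

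Before S phase, the origin recognition complex binds DNA, and CDC6 and CDT1 join it to load MCM2-7 as an inactive double ring, a step called licensing. Once S phase starts, geminin holds CDT1 so that no origin is licensed again, while the DBF4-dependent kinase CDC7 and factors such as CDC45, the GINS complex and MCM10 turn the loaded ring into a moving helicase. Polymerase alpha with its primase starts each new strand, polymerases epsilon and delta extend the leading and lagging strands on the PCNA clamp, and claspin and TIMELESS keep the polymerases coupled to the helicase and help pass stress signals to the checkpoint kinases. Most genes of this group are transcribed as cells enter S phase, and E2F factors are their best known regulators.

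The libraries held 7765826, 19989654 and 19306711 counts in KD libraries 1 to 3, and 17072573, 20035834 and 17351552 counts in SCR libraries 1 to 3, which leaves KD library 1 the least precise. On the first principal component of log2 expression over the tested genes, which took 53.3% of the variance, the KD libraries lay at -31.7, -20.8 and -28 and the SCR libraries at 14.5, 30.7 and 35.4. SCR library 1 thus lay nearest to the KD libraries, and it was also the control nearest to the KD values for 3748 of the 4657 genes called changed (80.5%). MYC was counted at 1103 to 1278 CPM (counts scaled to the size of the library) and OTX2, a defining factor of this tumour group, at 723 to 922 CPM. Of 8 markers of the group 1 rose and 5 fell, where 15.9% of all 14673 tested genes rose and 15.9% fell; OTX2 was among the falls (log2 -0.28 ± 0.08, adjusted p = 0.0202), a call that ended without KD library 1 (0.0762), KD library 3 (0.062), SCR library 2 (0.107) or SCR library 3 (0.0689; range 0.00257 to 0.107). Of the other falls, IMPG2 (log2 -0.59, adjusted p = 0.000414) was kept in all 16 alternatives. EYS (-0.81, 0.00334) and CRX (-0.44, 0.0133) were kept in 15 each and NRL (-0.69, 0.0226) in 13. With the gene-span correction EYS stood at -0.27 (0.236), and the CRX call ended without SCR library 3 (0.0743). The NRL groups overlapped, and its call ended without KD library 3 (0.122), SCR library 2 (0.0988) or SCR library 3 (0.0808). The marker that rose, GABRA5 (0.41, 0.00384), was kept in all 16. Of 10 markers of other cell types, MBP had no count in any library and GFAP, PTPRC, PECAM1 and EPCAM had at most 6 counts in a library. The summed level of the 10 was 791, 824 and 721 CPM in KD libraries and 879, 944 and 969 CPM in SCR libraries, nearly all of it from VIM, and 3 of the 5 that could be tested fell (COL1A1, DCN and VIM). These calls were kept in 11 (COL1A1), 9 (DCN) and 10 (VIM) of 16 alternatives, with adjusted p up to 0.139, 0.146 and 0.145; without KD library 3 or SCR library 2 all 3 ended, at 0.139 and 0.095 for COL1A1, 0.146 and 0.141 for DCN and 0.145 and 0.127 for VIM. The COL1A1 call also ended without SCR library 3 (0.128), the DCN call without KD library 1 (0.0807) or SCR library 1 (0.0862), and the VIM call without KD library 1 (0.0915) or SCR library 3 (0.124). DCN had only 3, 12 and 7 counts in KD libraries 1 to 3 and 21, 26 and 13 in SCR libraries 1 to 3. The part of these markers in the results below was not tested. In bulk RNA, fewer cells in a given phase of the cell cycle and less RNA per cell cannot be told apart.

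Because several of these genes changed in opposite directions, the letters just upstream of their start sites are shown for 5 genes that changed and for MCM2, which did not pass the test. Each run covers the 150 bases before and the 30 bases after the annotated RefSeq start on GRCh38.p14, 5′ to 3′ on the gene's strand. Capitals mark 2 motifs: the E2F octamer (TTTCCCGC, TTTCGCGC, TTTGCCGC or TTTGGCGC, on either strand) and the E-box CACGTG, the preferred site of MYC-MAX dimers. The windows lie at chr17:40287729-40287908 (plus strand) for CDC6, chr1:35769949-35770128 (minus strand) for CLSPN, chr14:49688185-49688364 (minus strand) for POLE2, chr16:88803639-88803818 (plus strand) for CDT1, chr12:56449397-56449576 (minus strand) for TIMELESS and chr3:127598261-127598440 (plus strand) for MCM2.
CDC6: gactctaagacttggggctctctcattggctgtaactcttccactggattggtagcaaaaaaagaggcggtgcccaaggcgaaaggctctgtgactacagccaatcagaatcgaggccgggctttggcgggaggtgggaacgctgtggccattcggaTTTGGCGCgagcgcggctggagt
CLSPN: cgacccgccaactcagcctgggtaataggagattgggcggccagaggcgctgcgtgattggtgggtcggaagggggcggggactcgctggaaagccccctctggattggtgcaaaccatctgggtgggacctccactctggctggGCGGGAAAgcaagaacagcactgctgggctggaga
POLE2: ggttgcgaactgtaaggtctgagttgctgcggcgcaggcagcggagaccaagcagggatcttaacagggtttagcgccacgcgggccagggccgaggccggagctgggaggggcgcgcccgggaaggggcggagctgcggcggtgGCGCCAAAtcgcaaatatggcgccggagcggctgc
CDT1: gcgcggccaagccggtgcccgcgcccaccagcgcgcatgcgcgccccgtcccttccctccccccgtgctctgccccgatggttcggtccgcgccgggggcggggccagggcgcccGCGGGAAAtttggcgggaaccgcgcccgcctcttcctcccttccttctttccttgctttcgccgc
TIMELESS: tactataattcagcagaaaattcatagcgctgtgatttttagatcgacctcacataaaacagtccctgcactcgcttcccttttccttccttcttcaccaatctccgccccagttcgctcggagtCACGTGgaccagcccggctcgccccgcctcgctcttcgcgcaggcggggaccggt
MCM2: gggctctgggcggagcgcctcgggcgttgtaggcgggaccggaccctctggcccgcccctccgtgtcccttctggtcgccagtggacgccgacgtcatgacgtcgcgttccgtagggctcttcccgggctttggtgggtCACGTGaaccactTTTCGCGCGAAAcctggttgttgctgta

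Counting the start base as position 0, the octamer began at position 7 in CDC6, at -5 in both CLSPN and POLE2 and at -35 in CDT1. MCM2 held octamers at 2 on the given strand and at 6 on the opposite strand, which overlap each other, and an E-box at -11. TIMELESS held no octamer and an E-box at -25. Among the printed genes, the octamer thus stood near the start of 3 that rose (CDC6, CLSPN, POLE2), of CDT1, which fell, and of MCM2, which did not pass. DBF4, which rose, and PRIM1, which fell, are not printed and held no octamer in the windows described below.

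Over the full windows of 300 bases (250 before to 50 after the start), RefSeq starts were found for 39 of the 45 genes, in 49 windows. At least 1 window of 20 of the 39 genes (51.3%) held an E2F octamer, against 3.99% of all 27305 genes of the table. Split by the expression test described below, the octamer was found in 6 of 14 genes that rose, 1 of 3 that fell and 13 of 22 that did not pass. The CCAAT box was found in 23 of the 39 genes (59%, against 39.7% of all genes of the table) and the E-box in 7 of the 39 (17.9%, against 8.77%). The cell cycle homology element (TTTGAA or TTCGAA), known from genes expressed late in the cell cycle, was found in 2 of the 39 genes, DBF4 and MCM6 (5.13%, against 19.5%). By single windows, the octamer was in 20 of the 49 (3.31% of all 35116 windows), the CCAAT box in 27 (34.6%), the E-box in 7 (7.26%) and the homology element in 2 (16.4%). These motif counts on both strands are descriptions of letters, with no test. Windows of GINS4, MCM4, MCM5, POLD3, RPA2 and RPA3 were not analysed here.

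**Figure D1:**
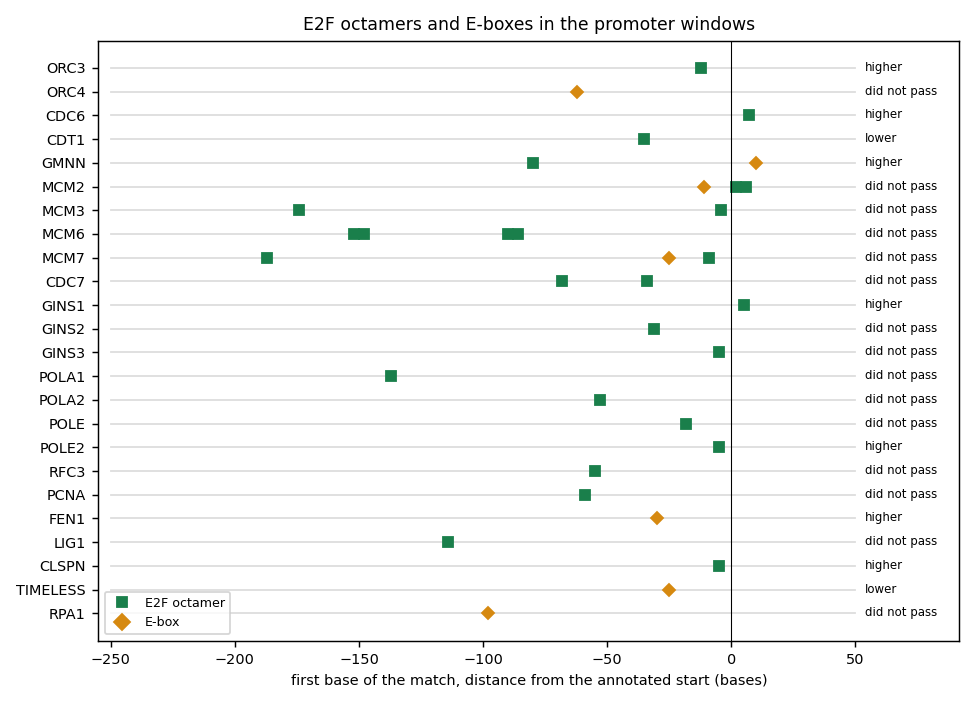
Position of E2F octamers (squares) and E-boxes (diamonds) in the windows of the 24 replication genes that hold either motif, as the first base of the match in bases from the annotated start, with the outcome of the expression test at the right. Octamers of genes that rose begin between -80 (GMNN) and 7 (CDC6) and that of CDT1, which fell, at -35; those of genes that did not pass reach further upstream, to -187 (MCM7).

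Comparing the KD with the SCR libraries asks how transcripts of this machinery changed with knockdown of lncMB3. Of the 45 genes, 15 rose and 3 fell (edgeR quasi-likelihood test, Benjamini-Hochberg adjusted p under 0.05 over all 14673 genes). This is 33.3% higher and 6.67% lower, where 15.9% of all tested genes rose and 15.9% fell. In either direction 40.0% of the 45 genes were called, where 31.7% of all tested genes were, so the total count is near the background and the split between directions is further from it. With upper-quartile scaling, which lowered the median change of all genes to -0.06 on the log2 scale, 10 rose and 4 fell, against 12.1% and 19.1% of all genes. The median log2 change was 0.15 over the 45 genes and 0.00 over all tested genes, and 34 of the 45 values were positive. Changes were small throughout: the largest rise was 1.40-fold (DBF4) and the largest fall 1.37-fold (CDT1). The KD values lay wholly above the SCR values for 18 genes and wholly below for 5, where 22.9% of all tested genes lay above and 23.1% below (46% in either direction).

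The count of calls depended on single libraries. Without SCR library 3, 4 of the 45 genes rose and 1 fell, against 9.46% and 9.8% of all genes tested in that fit. The share of the 45 genes that rose was thus slightly below the share of all genes there. Without SCR library 2, 5 rose and 2 fell (8.54% and 9.73% of all genes), and without KD library 3, 8 rose and 1 fell (10.8% and 11.5%). Without KD library 1, 11 rose and 4 fell (12.2% and 12.1% of all genes), and without KD library 2, 10 rose and 3 fell (14.6% and 14.4%). Without SCR library 1, 18 rose and 4 fell (17.2% and 16.6%). SCR library 1 was the control nearest to the KD values for all 18 called genes. CDC6, DBF4, PRIM1 and CLSPN were called in each of the 6 fits that left out 1 library, and the other 14 were not.

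**Figure D2:**
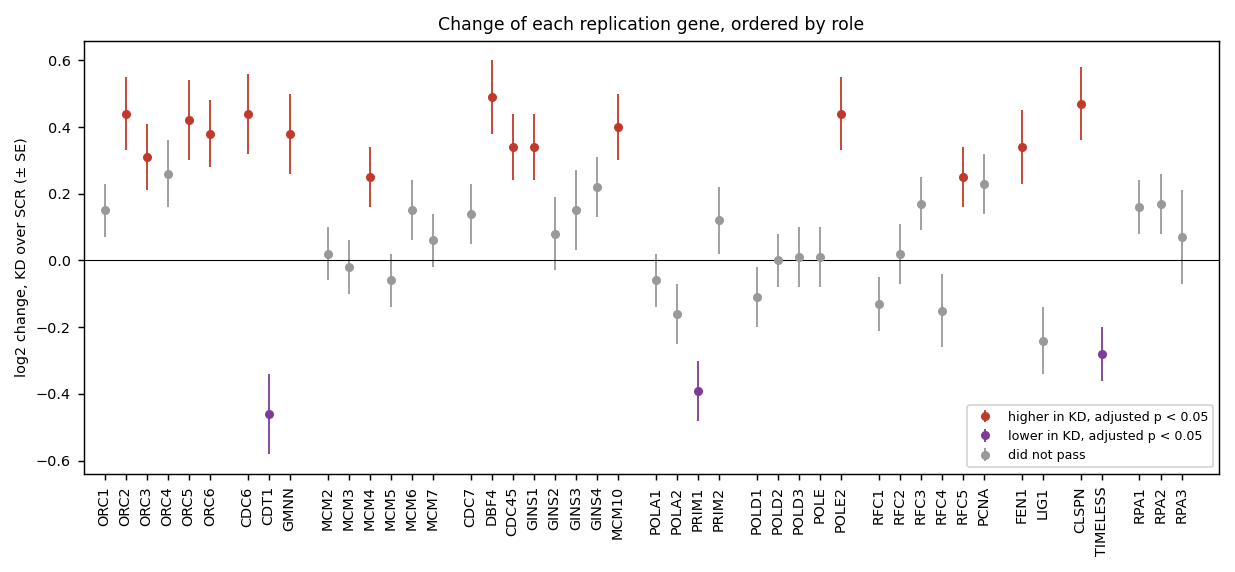
Log2 change, KD over SCR, of the 45 replication genes grouped by role, with bars of 1 standard error; colours mark genes that rose, fell or did not pass the test. Values run from -0.46 (CDT1) to 0.49 (DBF4). The origin recognition complex, licensing and helicase activation groups, which hold 6, 3 and 8 of the 45 genes, have 10 of the 15 rises. Of all tested genes 15.9% rose.

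The origin recognition complex, the ATPase that marks origins, had 4 of its 6 subunit genes risen and none fallen, with a median log2 change of 0.35. For this and the role groups below, 15.9% of all tested genes rose, 15.9% fell and 31.7% were called in either direction. The mean deviation of the complex from each gene's average was 0.08, 0.22 and 0.19 log2 CPM in the KD libraries, against -0.02, -0.16 and -0.31 in the SCR libraries. The groups did not overlap, as for 46% of all tested genes taken singly, and SCR library 1 lay closest to the KD group. ORC2, a core subunit (ENSG00000115942, chr2:200908973-200963680, minus strand; coordinates here and below are those of GENCODE 29 on GRCh38), had 47.0, 49.1 and 55.3 CPM in KD libraries 1 to 3, against 43.8, 35.3 and 33.1 CPM in SCR libraries 1 to 3. Every KD value was above every SCR value, a log2 change of 0.44 ± 0.11 (standard error, 3 libraries each) or 1.35-fold (adjusted p = 0.00816).

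ORC6, the small subunit that helps load the helicase, had 39.9, 46.7 and 42.4 CPM in KD libraries and 37.2, 33.1 and 29.2 CPM in SCR libraries, a rise of 1.30-fold (log2 0.38 ± 0.10, adjusted p = 0.0121). ORC5 had 24.3, 27.6 and 24.4 CPM in KD libraries and 21.1, 20.4 and 15.9 CPM in SCR libraries and rose 1.33-fold (log2 0.42 ± 0.12, adjusted p = 0.0152). For both subunits the groups were apart, with SCR library 3 the lowest. ORC3 had 79.9, 97.8 and 88.6 CPM in KD libraries, against 79.8, 73.4 and 61.8 CPM in SCR libraries, a rise of 1.24-fold (log2 0.31 ± 0.10, adjusted p = 0.0335). Here KD library 1 and SCR library 1 were almost level, so the groups only just stood apart.

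ORC1, the subunit that cells destroy and remake each cycle, did not pass the test at 41.9, 41.4 and 41.8 CPM in KD libraries, against 36.9, 37.3 and 38.3 CPM in SCR libraries (log2 0.15 ± 0.08, adjusted p = 0.176). Its KD libraries were the most even among the 45 genes: their coefficient of variation was 0.577%, against a median of 6.17% over the 45 genes. ORC4 did not pass either, at 38.6, 41.4 and 45.7 CPM in KD libraries and 39.5, 34.4 and 31.9 CPM in SCR libraries (log2 0.26 ± 0.10, adjusted p = 0.0663). It was called as a rise without SCR library 1 (adjusted p = 0.0195), with the gene-span correction (0.0282) and with the exon-length correction (0.0199), within a range of 0.0195 to 0.27 over 16 alternatives.

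Calls within the complex hung on single libraries. The ORC2 call ended without KD library 3 (adjusted p = 0.0528) or SCR library 2 (0.0505), within a range of 0.000494 to 0.0528 over 16 alternatives. The ORC5 call ended without KD library 2 (0.0591) or SCR library 3 (0.0774; range 0.00389 to 0.0774), and the ORC6 call without SCR library 2 (0.0525) or 3 (0.0628; range 0.00395 to 0.0628). The ORC3 call ended without KD library 2 (0.114) or 3 (0.0892) and without SCR library 2 (0.0871) or 3 (0.158), with upper-quartile scaling (0.0698) and with a GC correction (0.0789; range 0.014 to 0.158). In each of these fits the 4 log2 changes stayed positive.

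The 3 licensing factors all passed the test, CDC6 and GMNN as rises and CDT1 as a fall, where 31.7% of all tested genes passed. CDC6, the ATPase that recruits the helicase to the origin (ENSG00000094804, chr17:40287633-40304657, plus strand), had 171, 177 and 169 CPM in KD libraries, against 151, 129 and 101.0 CPM in SCR libraries. The KD libraries were level with each other and all above the SCR libraries, which spread more widely, with means of 172 ± 3.82 CPM in KD and 127 ± 25.3 CPM in SCR (SD, n = 3 each). The rise was 1.36-fold (log2 0.44 ± 0.12, adjusted p = 0.011), and CDC6 was called in all 16 alternatives, with an adjusted p of at most 0.0459.

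CDT1, the factor that brings MCM2-7 to the origin (ENSG00000167513, chr16:88803213-88809258, plus strand), had 35.9, 42.1 and 33.2 CPM in KD libraries and 43.0, 51.6 and 58.5 CPM in SCR libraries. Every KD value lay below every SCR value, with KD library 2 close to SCR library 1. The fall was 1.37-fold (log2 -0.46 ± 0.12, adjusted p = 0.00998), and the call ended without KD library 3 (adjusted p = 0.0525) or SCR library 3 (0.053; range 0.000112 to 0.053). The octamer at position -35 in the CDT1 run above is the same kind of motif as that of CDC6, which moved the other way. A part of the motif in either change was not tested.

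GMNN encodes geminin, the protein that binds and blocks CDT1. It had 48.9, 61.0 and 50.2 CPM in KD libraries, against 49.2, 40.4 and 34.5 CPM in SCR libraries, so KD library 1 lay just below SCR library 1 and the groups overlapped. The rise was 1.30-fold (log2 0.38 ± 0.12, adjusted p = 0.0313). The call ended without KD library 2 (adjusted p = 0.139) or 3 (0.0517), without SCR library 2 (0.106) or 3 (0.141), with upper-quartile scaling (0.0584) and with a GC correction (0.0562; range 0.00376 to 0.141).

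Within each library, the count of CDT1 per count of GMNN was 0.734, 0.691 and 0.661 in KD libraries and 0.874, 1.28 and 1.70 in SCR libraries. The groups did not overlap: the ratio averaged 0.695 ± 0.0365 in KD and 1.28 ± 0.411 in SCR (SD, n = 3 each), with the SCR spread far wider. This ratio needs no scaling between libraries. It and the other ratios of partner genes below were chosen after their values were seen and carry no test.

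**Figure D3:**
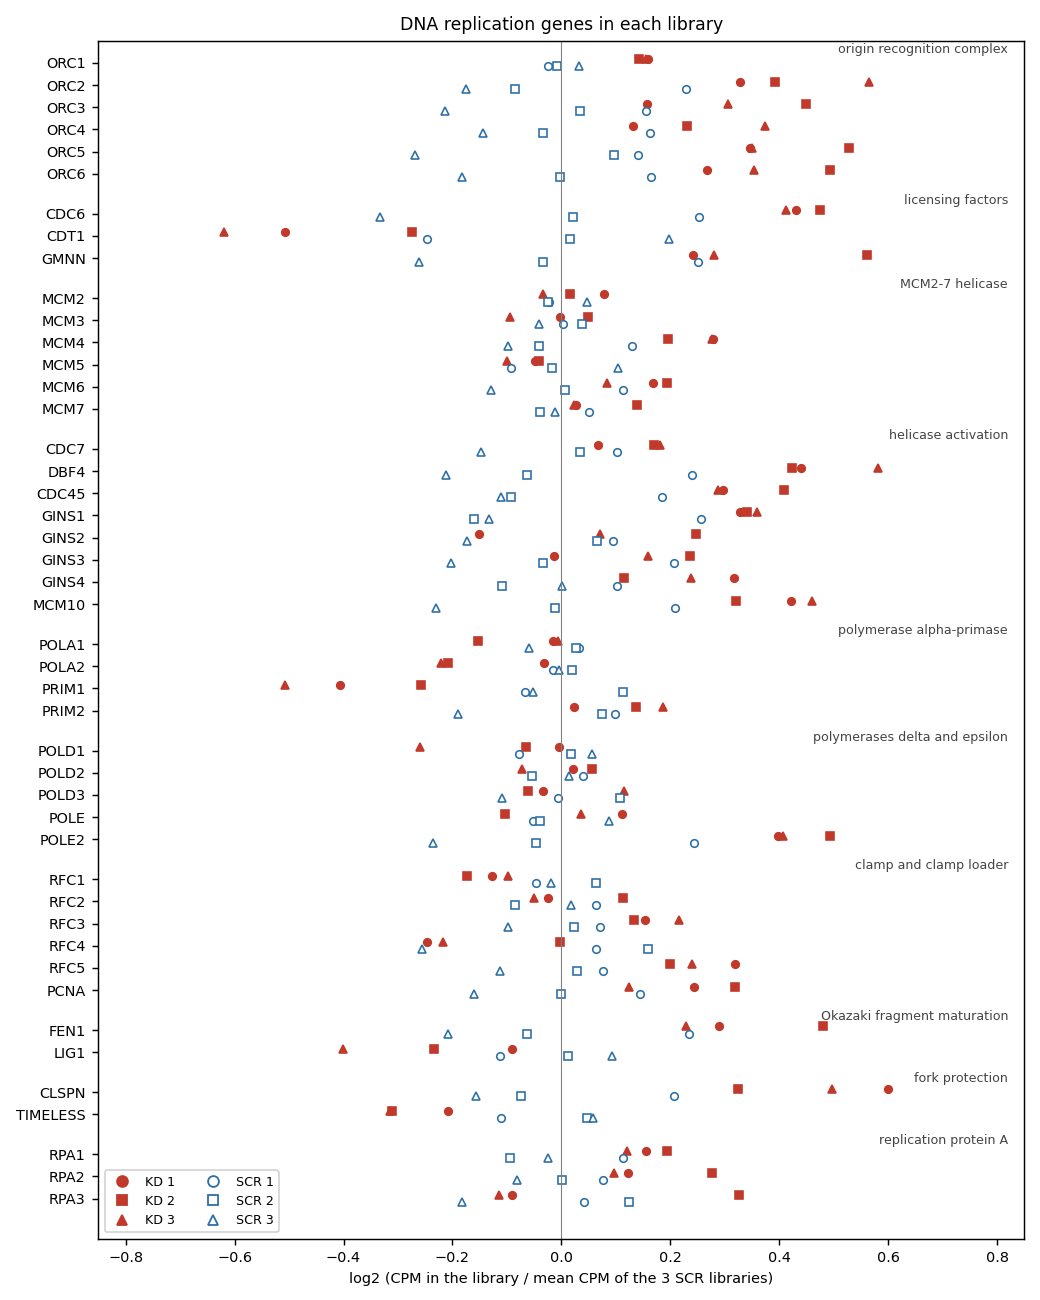
Level of each of the 45 replication genes in the 3 KD (filled) and 3 SCR (open) libraries, as log2 of its CPM over the mean CPM of the SCR libraries; symbols mark the replicate number. CDC6, DBF4 and CLSPN lie higher in all KD libraries, PRIM1 and TIMELESS lower, and the open circle of SCR library 1 is the control nearest to KD for each gene called.

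The MCM2-7 helicase, the ring that unwinds the parental strands, had 1 of 6 subunit genes risen and none fallen, with a median log2 change of 0.04. MCM4 had 601, 567 and 600.3 CPM in KD libraries, against 542, 482 and 463 CPM in SCR libraries. All KD values were above all SCR values, with means of 589.6 ± 19.2 CPM in KD and 496 ± 41.3 CPM in SCR (SD, n = 3 each). The rise was 1.19-fold (log2 0.25 ± 0.09, adjusted p = 0.0399). It was among the least firm calls: 8 of the 16 alternatives kept it, with adjusted p from 0.0116 to 0.161. It ended without KD library 1 (0.116) or 3 (0.13), without SCR library 2 (0.161) or 3 (0.159), with no filter on low counts (0.0615), with upper-quartile scaling (0.0925), with the replicate number as a block (0.051) and with a gene-span correction (0.062).

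The other 5 subunits did not pass. MCM2 had 327, 313 and 303 CPM in KD libraries and 305, 304 and 320.0 CPM in SCR libraries (log2 0.02 ± 0.08, adjusted p = 0.873). MCM3 had 387, 401 and 363 CPM in KD libraries and 388, 398 and 376 CPM in SCR libraries (log2 -0.02 ± 0.08, adjusted p = 0.906). For both, the KD and SCR values were interleaved, and 22.7% of the exon bases of MCM2 overlap the gene ENSG00000285600 on the other strand. MCM5 had 242, 243 and 234 CPM in KD libraries and 235, 248 and 269 CPM in SCR libraries (log2 -0.06 ± 0.08, adjusted p = 0.592), MCM6 had 262, 267 and 248 CPM in KD libraries and 253, 235 and 214 CPM in SCR libraries (log2 0.15 ± 0.09, adjusted p = 0.202), and MCM7 had 239, 259 and 239 CPM in KD libraries and 243, 229 and 233 CPM in SCR libraries (log2 0.06 ± 0.08, adjusted p = 0.573). Their groups overlapped too. The signs of MCM2, MCM3 and MCM5 turned under other settings.

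Since the 6 subunits form the ring in equal numbers, their levels per transcript length were also taken as shares of the MCM2-7 total. MCM4 made up 25.7 ± 1.22% in KD libraries and 22.9 ± 1.33% in SCR libraries (SD, n = 3 each), the largest share in KD. Its shares in KD library 2 (24.4%) and SCR library 1 (24.3%) were almost level. MCM3 made up 21.8% in KD and 23.3% in SCR, MCM2 15.8% in KD and 16.5% in SCR, MCM7 14.5% in KD and 14.7% in SCR, MCM6 12.6% in KD and 12.1% in SCR, and MCM5 9.51% in KD and 10.5% in SCR. The count of MCM4 per count of MCM2 was 1.84, 1.81 and 1.98 in KD libraries, against 1.78, 1.58 and 1.45 in SCR libraries, so the groups did not overlap but KD library 2 and SCR library 1 lay close.

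Of the 8 genes of helicase activation, 4 rose and none fell (DBF4, CDC45, GINS1 and MCM10), and all 8 log2 changes were positive, with a median of 0.28. Of all 14673 tested genes, 15.9% rose, 15.9% fell and 7344 had a positive log2 change. The mean deviation of the 8 genes was 0.09, 0.15 and 0.16 log2 CPM in KD libraries, against 0.05, -0.17 and -0.28 in SCR libraries. DBF4, the regulatory subunit that switches on the CDC7 kinase (ENSG00000006634, chr7:87876216-87909541, plus strand), had 43.4, 43.0 and 48.0 CPM in KD libraries and 37.8, 30.7 and 27.7 CPM in SCR libraries. All KD values were above all SCR values, with means of 44.8 ± 2.75 CPM in KD and 32.0 ± 5.22 CPM in SCR (SD, n = 3 each). The rise of 1.40-fold (log2 0.49 ± 0.11, adjusted p = 0.00475) was called in all 16 alternatives, with adjusted p of at most 0.0318. Of its exon bases, 3.1% overlap SLC25A40 on the other strand, which did not pass the test.

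CDC7, the kinase that phosphorylates the MCM ring, did not pass at 58.9, 63.2 and 63.8 CPM in KD libraries and 60.4, 57.6 and 50.7 CPM in SCR libraries (log2 0.14 ± 0.09, adjusted p = 0.236). The count of DBF4 per count of CDC7 was 0.737, 0.680 and 0.752 in KD libraries, against 0.627, 0.533 and 0.545 in SCR libraries. The groups of this ratio did not overlap, although KD library 2 came near SCR library 1.

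MCM10, which helps the helicase start and binds polymerase alpha, had 84.9, 79.1 and 87.2 CPM in KD libraries and 73.3, 62.8 and 54.04 CPM in SCR libraries, a rise of 1.32-fold (log2 0.40 ± 0.10, adjusted p = 0.00989). CDC45, a helicase cofactor, had 44.7, 48.3 and 44.4 CPM in KD libraries and 41.4, 34.1 and 33.7 CPM in SCR libraries, a rise of 1.26-fold (log2 0.34 ± 0.10, adjusted p = 0.0183). Neither gene's groups overlapped. GINS1, 1 of the 4 subunits of the GINS cofactor, had 98.1, 99.0 and 100.1 CPM in KD libraries and 93.3, 69.9 and 71.2 CPM in SCR libraries, a rise of 1.27-fold (log2 0.34 ± 0.10, adjusted p = 0.0222). SCR library 1 was close to the KD libraries for GINS1, and the other SCR libraries were well below.

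The other GINS subunits did not pass. GINS4 came closest, at 41.0, 35.6 and 38.8 CPM in KD libraries and 35.3, 30.5 and 32.9 CPM in SCR libraries (log2 0.22 ± 0.09, adjusted p = 0.0885), and was called without SCR library 1 (0.0484) and with a GC correction (0.042; range 0.042 to 0.326). GINS2 had 24.8, 32.8 and 28.98 CPM in KD libraries and 29.4, 28.9 and 24.5 CPM in SCR libraries (log2 0.08 ± 0.11, adjusted p = 0.616). GINS3 had 18.6, 22.1 and 21.0 CPM in KD libraries and 21.7, 18.3 and 16.3 CPM in SCR libraries (log2 0.15 ± 0.12, adjusted p = 0.373). A difference between GINS1 and its partners was not tested. The MCM10 call ended without KD library 3 (adjusted p = 0.0505) or SCR library 3 (0.0514; range 0.00105 to 0.0514), and the CDC45 call without KD library 2 (0.0564) or SCR library 2 (0.104) or 3 (0.0812; range 0.00349 to 0.104). The GINS1 call ended without KD library 1 (0.052) or 3 (0.0749) or SCR library 2 (0.133) or 3 (0.0967; range 0.000922 to 0.133).

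Polymerase alpha-primase, which lays down the RNA-DNA primers, had 1 of its 4 subunit genes fallen and none risen. PRIM1, the catalytic primase subunit (ENSG00000198056, chr12:56731596-56752373, minus strand), had 52.9, 58.7 and 49.3 CPM in KD libraries, against 66.9, 75.8 and 67.6 CPM in SCR libraries. All KD values lay well below all SCR values, with means of 53.6 ± 4.73 CPM in KD and 70.1 ± 4.97 CPM in SCR (SD, n = 3 each). The fall of 1.31-fold (log2 -0.39 ± 0.09, adjusted p = 0.00641) was called in all 16 alternatives, with adjusted p of at most 0.0499. Exons of PRIM1 overlap those of HSD17B6 on the other strand (5.42% of its exon bases), and those of NACA (1.35%) and ENSG00000285625 (14.9%) on its own strand, so reads there could be split between genes. None of these 3 neighbours passed the test. Their log2 changes were -0.32 for HSD17B6 (adjusted p = 0.412), 0.23 for NACA (0.102) and 1.07 for ENSG00000285625 (0.221). The 2 on the strand of PRIM1 thus had the opposite sign to PRIM1, and a shift of reads between these genes was not tested.

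PRIM2, the large primase subunit, did not pass at 39.5, 42.8 and 44.3 CPM in KD libraries and 41.7, 41.0 and 34.1 CPM in SCR libraries (log2 0.12 ± 0.10, adjusted p = 0.359). With a gene-span correction its log2 change was 0.38 (adjusted p = 0.0144, range over alternatives 0.0144 to 0.828). The count of PRIM1 per count of PRIM2 was 1.34, 1.37 and 1.11 in KD libraries, against 1.61, 1.85 and 1.98 in SCR libraries, with no overlap. POLA2, the regulatory subunit, had 51.4, 45.4 and 45.04 CPM in KD libraries and 51.9, 53.3 and 52.4 CPM in SCR libraries (log2 -0.16 ± 0.09, adjusted p = 0.172), all KD values being lower, by little in library 1; 35.1% of its exon bases are shared with the gene ENSG00000285816 on the same strand. POLA1, the DNA polymerase subunit, had 73.4, 66.7 and 73.9 CPM in KD libraries and 75.8, 75.6 and 71.1 CPM in SCR libraries (log2 -0.06 ± 0.08, adjusted p = 0.622).

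Among 5 subunit genes of polymerases delta and epsilon, POLE2 rose and none fell. POLE2, the second subunit of the leading-strand polymerase (ENSG00000100479, chr14:49643555-49688422, minus strand), had 34.9, 37.2 and 35.1 CPM in KD libraries and 31.3, 25.6 and 22.5 CPM in SCR libraries. The groups were apart and SCR library 3 was the lowest, with means of 35.7 ± 1.32 CPM in KD and 26.5 ± 4.49 CPM in SCR (SD, n = 3 each). The rise was 1.35-fold (log2 0.44 ± 0.11, adjusted p = 0.00981) and ended without SCR library 2 (adjusted p = 0.0503) or 3 (0.051; range 0.00102 to 0.051). POLE, the catalytic subunit, had 142, 123 and 135 CPM in KD libraries and 127, 128 and 139.8 CPM in SCR libraries (log2 0.01 ± 0.09, adjusted p = 0.915), with the groups interleaved. The count of POLE2 per count of POLE was 0.245, 0.304 and 0.260 in KD libraries and 0.247, 0.200 and 0.161 in SCR libraries, which overlapped.

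The delta subunits of the lagging-strand polymerase did not pass. The catalytic subunit gene POLD1 had 100.8, 96.7 and 84.5 CPM in KD libraries and 95.9, 102 and 105 CPM in SCR libraries (log2 -0.11 ± 0.09, adjusted p = 0.368). POLD2 had 108, 110.2 and 100.9 CPM in KD libraries and 109, 102 and 107 CPM in SCR libraries (log2 0.00 ± 0.08, adjusted p = 0.99), and POLD3 had 62.4, 61.2 and 69.2 CPM in KD libraries and 63.6, 68.8 and 59.2 CPM in SCR libraries (log2 0.01 ± 0.09, adjusted p = 0.943). The signs of POLE, POLD2 and POLD3 turned under other settings.

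Of the sliding clamp and its loader, RFC5 rose and none fell among 6 genes. RFC5, a small loader subunit, had 67.4, 62.1 and 63.8 CPM in KD libraries and 57.0, 55.2 and 49.96 CPM in SCR libraries, a rise of 1.19-fold (log2 0.25 ± 0.09, adjusted p = 0.0382). The groups did not overlap, and 5.72% of its exon bases overlap WSB2 on the other strand, which did not pass the test. It was kept in 9 of 16 alternatives and ended without KD library 1 (adjusted p = 0.129) or 3 (0.0956), without SCR library 2 (0.104) or 3 (0.161), with no filter on low counts (0.0842), with upper-quartile scaling (0.0935) and with a gene-span correction (0.0629; range 0.0204 to 0.161).

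PCNA, the clamp itself, did not pass at 252, 266 and 232 CPM in KD libraries and 235, 213 and 191 CPM in SCR libraries (log2 0.23 ± 0.09, adjusted p = 0.0731), KD library 3 being lower than SCR library 1. Without SCR library 1 it was called (adjusted p = 0.0217, range 0.0217 to 0.287). RFC3 had 72.3, 71.4 and 75.5 CPM in KD libraries and 68.3, 66.1 and 60.7 CPM in SCR libraries (log2 0.17 ± 0.08, adjusted p = 0.135), with all KD values higher, and was called with a gene-span correction (adjusted p = 0.0137, range 0.0137 to 0.385). RFC1, the large subunit, had 326, 316 and 332 CPM in KD libraries and 344, 372 and 351 CPM in SCR libraries (log2 -0.13 ± 0.08, adjusted p = 0.218), with all KD values lower. The small subunits RFC2, with a log2 change of 0.02 ± 0.09 and adjusted p of 0.903, and RFC4, with -0.15 ± 0.11 and 0.328, both had overlapping groups.

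Of the 2 genes that finish Okazaki fragments, FEN1, the nuclease that trims primer flaps, rose. It had 219, 250.4 and 210.1 CPM in KD libraries and 211, 172 and 155 CPM in SCR libraries, a rise of 1.26-fold (log2 0.34 ± 0.11, adjusted p = 0.0302). KD library 3 was just below SCR library 1, so the groups overlapped. The call ended without KD library 1 (adjusted p = 0.0551) or 2 (0.103), without SCR library 2 (0.121) or 3 (0.14) and with upper-quartile scaling (0.0589; range 0.00342 to 0.14). Its exons overlap TMEM258 on the other strand (6.7% of exon bases) and FADS2 on the same strand (1.98%), and FADS2 fell (log2 -0.23, adjusted p = 0.04). LIG1, the ligase that seals the fragments, had 79.3, 71.8 and 64.0 CPM in KD libraries and 78.1, 85.2 and 90.1 CPM in SCR libraries and did not pass (log2 -0.24 ± 0.10, adjusted p = 0.0644). It was called as a fall with upper-quartile scaling (0.0289), without SCR library 1 (0.038) and without KD library 1 (0.0484; range 0.0289 to 0.242).

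The 2 fork protection genes moved in opposite directions. CLSPN encodes claspin, the adaptor that brings the checkpoint kinase CHK1 to its activator ATR (ENSG00000092853, chr1:35720218-35769967, minus strand), and had 71.7, 59.3 and 66.8 CPM in KD libraries and 54.6, 44.9 and 42.4 CPM in SCR libraries. All KD values were above all SCR values, with means of 65.9 ± 6.25 CPM in KD and 47.3 ± 6.41 CPM in SCR (SD, n = 3 each). The rise of 1.39-fold (log2 0.47 ± 0.11, adjusted p = 0.00438), the smallest adjusted p among the 45 genes, was called in all 16 alternatives, with adjusted p of at most 0.0306.

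TIMELESS, which couples the helicase to the polymerases (ENSG00000111602, chr12:56416373-56449403, minus strand), had 217, 202 and 201 CPM in KD libraries and 232, 259 and 261 CPM in SCR libraries. All KD values were below all SCR values, with means of 207 ± 8.71 CPM in KD and 250.3 ± 16.1 CPM in SCR (SD, n = 3 each). The fall was 1.21-fold (log2 -0.28 ± 0.08, adjusted p = 0.0198). The call ended without KD library 3 (adjusted p = 0.0695) or SCR library 2 (0.0968) or 3 (0.077; range 0.00669 to 0.0968).

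TIPIN, the obligate partner of TIMELESS and not among the 45 genes, had 30.7, 35.3 and 31.9 CPM in KD libraries and 29.4, 27.2 and 22.8 CPM in SCR libraries, a rise of 1.24-fold (log2 0.31 ± 0.11, adjusted p = 0.0409) that 8 of 16 alternatives kept (range 0.0181 to 0.188) and that ended without any 1 library other than SCR library 1, with upper-quartile scaling (0.0858), with DESeq2 (0.0534) and with a GC correction (0.0523). It was named after its values were seen. The count of TIMELESS per count of TIPIN was 7.06, 5.71 and 6.31 in KD libraries, against 7.87, 9.49 and 11.4 in SCR libraries. The ratio averaged 6.36 ± 0.673 in KD and 9.60 ± 1.78 in SCR (SD, n = 3 each), and the groups did not overlap.

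**Figure D4:**
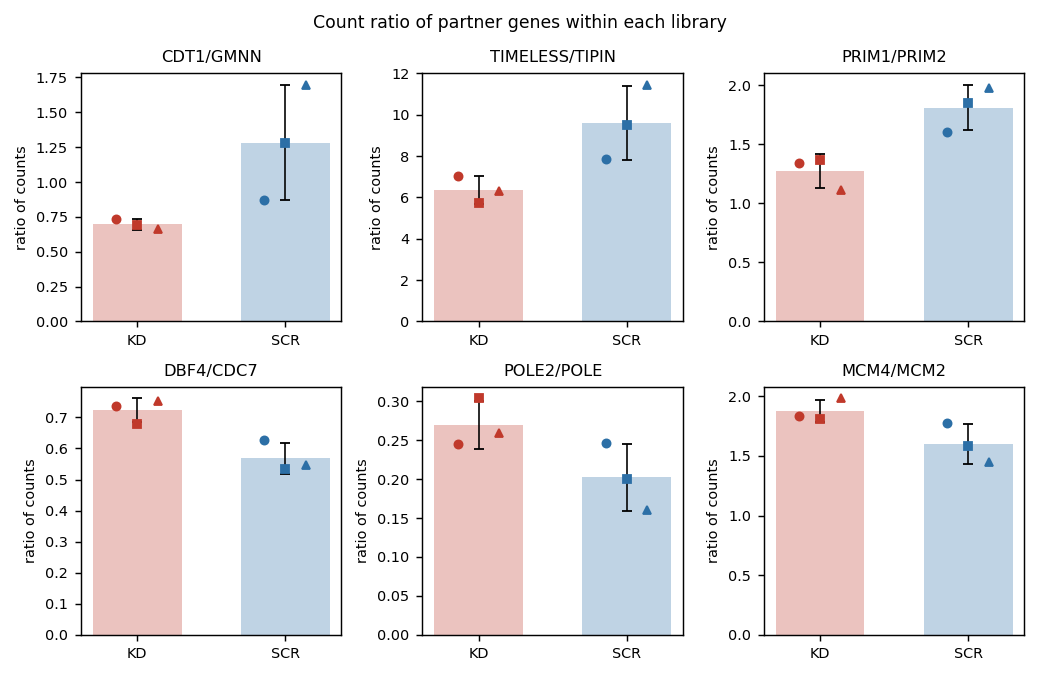
Count of a gene per count of its functional partner within each library, for 6 pairs; points are the 3 KD and 3 SCR libraries, bars are means and error bars 1 SD. CDT1 per GMNN, TIMELESS per TIPIN and PRIM1 per PRIM2 lie lower in all KD libraries, DBF4 per CDC7 and MCM4 per MCM2 higher, and POLE2 per POLE overlaps.

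Replication protein A, the trimer that coats single-stranded DNA, had none of its 3 subunit genes called by edgeR's test, and 0 of the 3 had an unadjusted p under 0.05. DESeq2 called none either. RPA1 had 113, 116 and 111 CPM in KD libraries and 110.1, 95.3 and 100.03 CPM in SCR libraries (log2 0.16 ± 0.08, adjusted p = 0.165), and RPA2 had 94.0, 105 and 92.4 CPM in KD libraries and 91.1, 86.5 and 81.7 CPM in SCR libraries (log2 0.17 ± 0.09, adjusted p = 0.147). Both had all KD values above all SCR values by small margins. RPA3 had 13.4, 17.9 and 13.2 CPM in KD libraries and 14.7, 15.6 and 12.6 CPM in SCR libraries (log2 0.07 ± 0.14, adjusted p = 0.736), with overlapping groups, and its sign turned when KD library 2 or SCR library 3 was left out.

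Levels were set against each other per transcript length, as approximate TPM, a length-scaled share of the library, from the counts and the longest GENCODE 29 transcript, which need not be the transcript these cells use. PCNA was the highest of the 45 at 455 ± 16.4 TPM in KD and 408 ± 30.9 TPM in SCR (SD, n = 3 each), above 98.1% of all tested genes by its SCR level. MCM3 followed at 296 ± 7.66 TPM in KD and 315 ± 8.21 TPM in SCR, and MCM4 at 349 ± 26.4 TPM in KD and 308 ± 17.1 TPM in SCR. In SCR these neighbours stood apart by less than the spread of MCM4, while PCNA was clear of both in SCR. The other MCM subunits, FEN1 and RFC1 made up the rest of the top 9, down to MCM5 at 129 ± 4.25 TPM in KD and 142 ± 14.0 TPM in SCR.

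Several of the genes that rose most lay low in this order. DBF4 had 28.4 ± 2.76 TPM in KD and 21.3 ± 2.85 TPM in SCR, CLSPN 34.3 ± 4.53 TPM in KD and 25.8 ± 2.76 TPM in SCR, and ORC5 30.8 ± 0.893 TPM in KD and 24.3 ± 3.02 TPM in SCR, each within the lowest 8 by SCR level. CDC6 lay near the middle at 88.7 ± 2.03 TPM in KD and 68.6 ± 11.7 TPM in SCR. GINS3 (15.9 ± 1.08 TPM in KD and 15.2 ± 1.74 TPM in SCR) and ORC4 (15.5 ± 1.67 TPM in KD and 13.7 ± 1.09 TPM in SCR) were the lowest, and their SCR spreads overlapped. These levels are not rescaled between libraries as the CPM values are, so they order genes and do not replace the tests above.

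**Figure D5:**
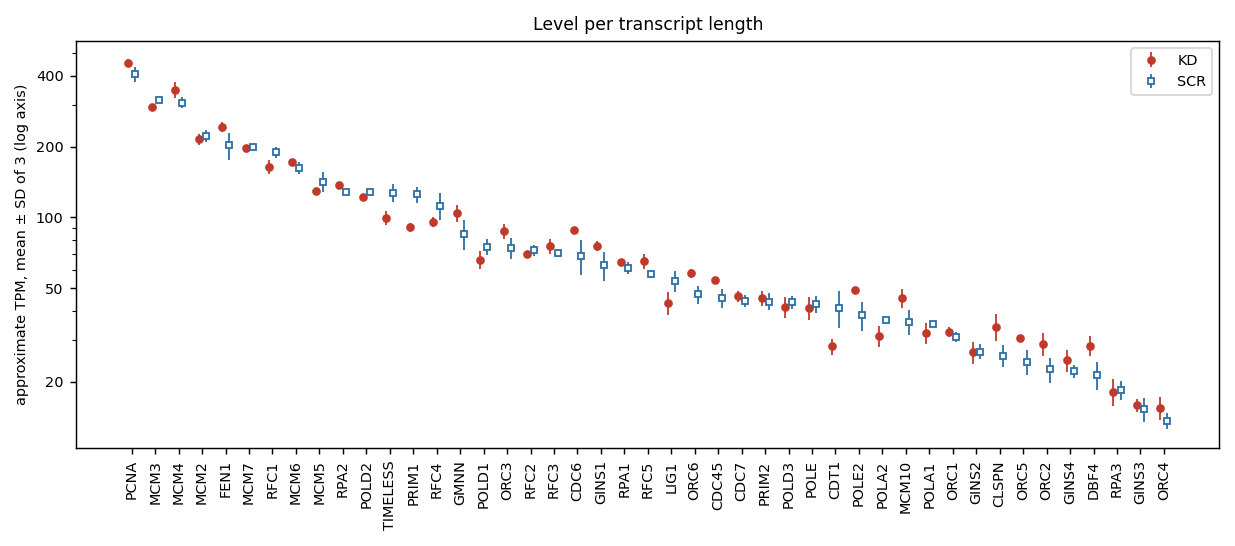
Approximate TPM (log axis) of the 45 replication genes in order of SCR level, with KD and SCR means and bars of 1 SD over 3 libraries. PCNA leads at 455 TPM in KD and 408 TPM in SCR, and ORC4 is lowest at 15.5 TPM in KD and 13.7 TPM in SCR.

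Beyond the 45, a list of 36 other replication factors held 9 genes that rose (25.0%, where 15.9% of all tested genes did) and none that fell (15.9% of all), with a median log2 change of 0.05. In either direction 25.0% were called, below the 31.7% of all tested genes. The 4 with the smallest adjusted p were TOP1, the topoisomerase that relaxes DNA ahead of the fork (1.50-fold, log2 0.59 ± 0.10, adjusted p = 0.000851), POLE3, a histone-fold subunit of polymerase epsilon (1.35-fold, adjusted p = 0.00275), LRWD1, a protein that binds the origin recognition complex (1.37-fold, adjusted p = 0.00598), and MCMBP, which binds MCM subunits (1.30-fold, adjusted p = 0.00615). TOP1 had 232, 206 and 241 CPM in KD libraries and 172, 135 and 145 CPM in SCR libraries. Its groups lay clearly apart, and all 4 genes were called in each fit that left out 1 library.

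Of 17 E2F and RB factors, 3 rose (17.6%) and 1 fell (5.88%), where 15.9% of all tested genes rose and 15.9% fell. In either direction 23.5% were called, below the 31.7% of all tested genes, and the median log2 change was -0.05. E2F4, a factor best known as a repressor of cell cycle genes, had 43.3, 36.1 and 36.5 CPM in KD libraries and 29.6, 25.8 and 24.1 CPM in SCR libraries and rose 1.45-fold (log2 0.53 ± 0.11, adjusted p = 0.00204). Of the DNA-binding partners of the E2F proteins, TFDP2 had 34.5, 37.2 and 35.4 CPM in KD libraries and 47.5, 57.3 and 54.1 CPM in SCR libraries and fell 1.48-fold (log2 -0.57 ± 0.09, adjusted p = 0.000665). TFDP1 had 371, 339.6 and 371 CPM in KD libraries and 319, 275 and 274 CPM in SCR libraries and rose 1.24-fold (log2 0.32 ± 0.09, adjusted p = 0.0144). In all 3 the groups were apart, and the count of TFDP1 per count of TFDP2 was 10.8, 9.13 and 10.5 in KD libraries, against 6.73, 4.80 and 5.07 in SCR libraries.

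E2F6, a repressor, rose 1.25-fold (log2 0.32 ± 0.10, adjusted p = 0.0234). E2F5 (log2 0.17 ± 0.08, adjusted p = 0.117), E2F7 (-0.18 ± 0.12, 0.281) and E2F8 (-0.24 ± 0.16, 0.277) did not pass. Nor did RB1 (-0.16 ± 0.10, 0.21), RBL1 (0.06 ± 0.11, 0.675) or RBL2 (-0.20 ± 0.11, 0.169). RB1 was called as a fall with a GC correction (0.0319). The activators did not pass: E2F1 had 51.4, 55.5 and 54.2 CPM in KD libraries and 57.4, 63.4 and 65.4 CPM in SCR libraries (log2 -0.21 ± 0.09, adjusted p = 0.0798), E2F2 a log2 change of -0.12 ± 0.08 (adjusted p = 0.28) and E2F3 of 0.19 ± 0.09 (adjusted p = 0.132). All KD values of E2F1 lay below all SCR values, and it was called as a fall in 4 of 16 alternatives, among them upper-quartile scaling (0.0323), the gene-span correction (0.0296) and the fit without SCR library 1 (0.0368; range 0.0247 to 0.243). E2F3 was called as a rise in 2, without KD library 2 (0.0312) and with the gene-span correction (0.0403; range 0.0312 to 0.383). E2F4 and TFDP2 were called in each of the 6 fits without 1 library, and TFDP1 and E2F6 in 2 of them, over ranges of adjusted p of 0.0031 to 0.0902 and 0.0119 to 0.104 across the 16 alternatives. The TFDP1 call ended without KD library 1 (0.0577), KD library 3 (0.0662), SCR library 2 (0.0902) or SCR library 3 (0.0645), and the E2F6 call without KD library 2 (0.0605), KD library 3 (0.104), SCR library 2 (0.092) or SCR library 3 (0.104), and with upper-quartile scaling (0.0518).

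Of 10 checkpoint genes of S phase, 3 rose (30.0%) and none fell, with a median log2 change of 0.16. The share that rose compares with 15.9% of all tested genes, and the share called in either direction is close to the 31.7% of all. CDC25A, the phosphatase that activates the S-phase kinase CDK2, had 91.4, 86.96 and 92.1 CPM in KD libraries and 65.0, 57.9 and 55.6 CPM in SCR libraries, wholly apart, and rose 1.51-fold (log2 0.60 ± 0.09, adjusted p = 0.000298). ATR, the kinase that claspin serves, rose 1.30-fold (log2 0.38 ± 0.11, adjusted p = 0.0163, range 0.00252 to 0.0954), and HUS1, part of the checkpoint clamp, 1.36-fold (log2 0.44 ± 0.14, adjusted p = 0.029, range 0.0271 to 0.129). The ATR call ended without KD library 3 (0.0911), SCR library 2 (0.0954) or SCR library 3 (0.0725), and the HUS1 call without KD library 3 (0.104), SCR library 2 (0.129) or SCR library 3 (0.0539), with DESeq2 (0.0787) or with upper-quartile scaling (0.056).

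Of 30 mitotic genes, which act after replication is done, 5 rose (16.7%) and 1 fell (3.33%), with a median log2 change of 0.11. The share that rose is near the 15.9% of all tested genes, and 20% were called in either direction, below the 31.7% of all. CCNB1, the mitotic cyclin, rose 1.40-fold (log2 0.48 ± 0.08, adjusted p = 0.000945), with 263, 261 and 259.6 CPM in KD libraries and 205, 179 and 177 CPM in SCR libraries. CDC20, an activator of the anaphase-promoting complex, rose 1.25-fold (adjusted p = 0.00892) and DLGAP5, a spindle protein, 1.24-fold (adjusted p = 0.0218), while TPX2, a spindle assembly factor, fell 1.27-fold (adjusted p = 0.00881). The CDC20 call ended without SCR library 2 (0.0757), the DLGAP5 call without KD library 2 (0.0516), KD library 3 (0.0912), SCR library 2 (0.0912) or SCR library 3 (0.108) and with a GC correction (0.0543), and the TPX2 call without SCR library 3 (0.0506), within ranges of 0.000979 to 0.0757 for CDC20, 0.0067 to 0.108 for DLGAP5 and 0.000602 to 0.0506 for TPX2.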

How the data were processed

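Polyadenylated RNA from 6 samples of D283 Med cells was sequenced from TruSeq Stranded mRNA libraries, per the labels' protocols. The deposited values are the authors' expected counts per gene, also called estimated counts, all whole numbers as deposited. Trim Galore 0.6.4, STAR 2.7.9a, RSEM and GRCh38.p13 are named in the submitters' processing notes. Neither the gene annotation nor the RSEM version or strand setting is given in those sources.

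The 60708 rows became 60664 genes once 44 pseudoautosomal copies were added to their partners. Symbols came from a separate list of gene names, with GENCODE 29 names as a fallback. Coordinates came from GENCODE 29, and promoter windows from RefSeq (GRCh38.p14). edgeR 4.0.16 (R 4.3.3) was run on all genes after filterByExpr, scaled by TMM, with its quasi-likelihood F test and no covariates, and p-values were Benjamini-Hochberg adjusted over 14673 genes, with a threshold of 0.05. CPM are TMM-scaled, and the common biological coefficient of variation was 8.91%. Counting error is largest in KD library 1.

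Alternatives were RLE and upper-quartile scaling, DESeq2 1.42.0, limma-voom (limma 3.58.1), no filter on counts or one at 1 CPM in 3 libraries, a replicate block (replicate numbers did not pair the libraries) and leaving out each library. Corrections for gene span, exon length and GC content were added after seeing the data. These make up the 16 alternatives, and a stricter threshold of 0.01 was also read from the reported fit. The fits were tested on simulated data.

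All 45 genes are named, with up to 4 genes of the smallest adjusted p from each other list. Cell type markers and all E2F and RB factors are named where useful. The genes and lists were chosen with earlier results of these data known.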

Additional observations from a re-analysis of the deposited data

How the results depend on the processing

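RLE scaling, limma-voom, DESeq2 and the filter of 1 CPM kept all 18 calls among the 45 replication genes and added none. Over the 6 fits that left out 1 library, the count of all genes called, 4657 as reported, ran from 2704 (without SCR library 2) to 5114 (without SCR library 1), and the 45 genes had 4 to 18 rises and 1 to 4 falls. In the same fits the other replication factors had 5 to 11 rises, and the mitotic genes 1 to 8 rises and 0 to 1 falls. At an adjusted p under 0.01, 2459 of the 14673 tested genes were called over the whole table. Of the 45 genes 5 rose and 2 fell at this threshold, a share called slightly below that of the whole table. Of the other replication factors 5 rose, and of the mitotic genes 2 rose and TPX2 fell. Upper-quartile scaling gave 10 rises among the 45 genes, 5 among the other replication factors, and 3 rises and 2 falls among the mitotic genes. The exon-length correction added 1 fall among the other replication factors, and the gene-span correction gave 2 mitotic falls. The causes were not tested.

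The KD and SCR replicate numbers did not pair the libraries: same-numbered deviations correlated at 0.0315, 0.0963 and -0.0334, and KD library 1 correlated best with SCR library 3. With the replicate block, 4742 genes were called, and 14 of the 45 genes rose and 3 fell; 17 of the 18 calls were shared and MCM4 was lost.

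Of 720 values of the 45 genes under the alternatives, 33 turned sign, in 10 genes, none of them called. MCM2 stood at -0.0385 (log2) with upper-quartile scaling, -0.0159 with the gene-span correction and from -0.00505 (without KD library 1) to 0.0433 over the fits without 1 library. MCM3 stood at 0.0309 and MCM5 at 0.00109 with the GC correction, and MCM3 ran from -0.0484 to 0.0157 without 1 library. POLA1 stood at 0.178 with the gene-span correction, and GINS2 ran from -0.018 to 0.165 without 1 library. POLD2 stood at -0.0559 with upper-quartile scaling, -0.00985 with no filter, -0.0109 with the 1 CPM filter, -0.0407 with the gene-span correction, -0.0153 with the exon-length correction and between -0.0271 and 0.0312 without 1 library. POLD3 stood at -0.0474 with upper-quartile scaling, -0.00205 with the 1 CPM filter and between -0.0568 and 0.0655 without 1 library. POLE stood at -0.0441 with upper-quartile scaling and between -0.0282 and 0.073 without 1 library. RFC2 stood at -0.0405 with upper-quartile scaling, -0.0199 with the gene-span correction, -0.0416 with the exon-length correction and between -0.0374 and 0.053 without 1 library. RPA3 stood between -0.105 and 0.158 without 1 library. With 3 libraries a group an exact permutation test of a single value cannot go below p = 0.1, so all calls rest on the spread shared across genes.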
